A study of Homo sapiens with 4 samples.

Results

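TFIID is the general transcription factor that recognises the core promoter of protein-coding genes, and 10 of its subunits are described here: TBP, TAF1, TAF2, TAF4, TAF5, TAF6, TAF7, TAF9, TAF10 and TAF12. They were found among the 25688 genes with a row in the deposited tables by matching the RefSeq identifier of each transcript row to the gene symbol, which gave 31 transcript rows. The set was chosen with the values in view, because TAF10 and TAF6 were listed at 0 in both libraries of one group. The difference between the groups is therefore given for the members as a description, without a test.

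The RNA sequenced was that held by streptavidin beads after DU-145 cells had been transfected with miR-26a. DU-145 is a human prostate cancer cell line that grows without androgen, and miR-26a is a microRNA whose seed pairs with short sites in mRNAs and lowers their output. The 2 control libraries came from cells given an untagged miR-26a duplex, and the 2 biotin libraries from cells given a mix of duplexes that carried a biotin at the 3′ end and a thiouridine at nucleotide 7 or 17. Both groups received 60 nM of duplex with lipofectamine 24 h after seeding, and both were irradiated at 365 nm with 2 J/cm2, which crosslinks thiouridine to bound RNA. Controls thus also held added miR-26a, and since every tagged duplex also carried thiouridine, the effects of tag and thiouridine cannot be told apart. A value is what the beads retained and not the amount in the cell, and in pooled cells a change in cell number and in RNA per cell cannot be told apart.

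TBP binds the TATA element and bends promoter DNA, and the TBP-associated factors (TAFs) hold it, read other promoter elements and contact activators. TAF4 with TAF12, TAF6 with TAF9, and TAF10 with TAF8 or TAF3 pair through histone folds, and these pairs assemble around TAF5, with several of the core subunits present as more than a single copy. TAF9, TAF10 and TAF12 are also subunits of SAGA, a coactivator that acetylates and deubiquitinates histones. Cells need most of these proteins for promoter recognition, and their mRNAs are broadly expressed.

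The libraries held an estimated 16030000 to 23640000 mapped reads. Within a group they correlated across genes at Pearson r = 0.971 (control) and 0.970 (biotin), and between groups at 0.876 to 0.883, over genes, which are not independent replicates. All 7 markers of DU-145 epithelium reached an FPKM of 1 (fragments per kilobase of transcript, divided by the library's mapped fragments), with a summed level of 168.2 to 203.3 in control and 211.1 to 221.2 in biotin libraries. Of 5 markers of androgen receptor-positive prostate 1 did, and none of the 4 blood, 4 fibroblast and 3 endothelial markers did. Of the 9932 genes tested with limma, 13.2% were called higher and 9.32% lower in biotin libraries at a Benjamini-Hochberg adjusted p below 0.05 (1307 and 926 genes). The balance moved with the scaling, with 1224 higher and 1387 lower under upper-quartile scaling, and 1276 and 1213 under quantile normalization.

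The seed of the transfected microRNA and the member site that can be printed are shown because the beads were meant to retain mRNAs paired with them. Capitals mark the seed, nucleotides 2 to 8, and the stretch complementary to it, TACTTGA. The microRNA is the RefSeq mature sequence of MIR26A1 (GRCh38, chr3:37969413-37969434, plus strand), and the site lies 46 bases into the 3′ UTR of TAF12 (GRCh38, chr1:28603479-28603507, minus strand, GENCODE 29).
hsa-miR-26a-5p: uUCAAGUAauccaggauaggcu
TAF12 site: gtatttggagaTACTTGAgctgagaactc
Of the 10 members, TAF12 and TAF2 each held 1 such match in the annotated 3′ UTR, searched on the transcribed strand. The UTRs of the other 8 held none, and that of TAF1 was annotated with only 3 bases in the transcript matched, so its search says nothing. Over tested genes with an annotated 3′ UTR, 1099 of 9343 held a match, or 11.8%. TAF2 and TAF12 lay on opposite sides: TAF2 was higher in biotin libraries and TAF12 lower. The 3′ UTR of TAF10 has 83 bases, beside a median of 943 over tested genes. That of TAF6, 170 bases, belongs to a coding transcript listed at 0 in all 4 libraries. A match is a description of letters and not of binding.

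Biotin values lay above both controls in 3 members (TBP, TAF1 and TAF2), below both in 3 (TAF6, TAF10 and TAF12), and overlapped or were 0 throughout in the other 4. Over all tested genes, 29.4% lay above without overlap and 37.7% below; since the contrast served to choose the members, nothing is read from these shares. The filter on low values (2 or more libraries at an FPKM of 1 or above) was passed by 6 members (TBP, TAF2, TAF6, TAF7, TAF10 and TAF12), of which TAF6 and TAF10 passed only through their control values.

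**Figure D1:**
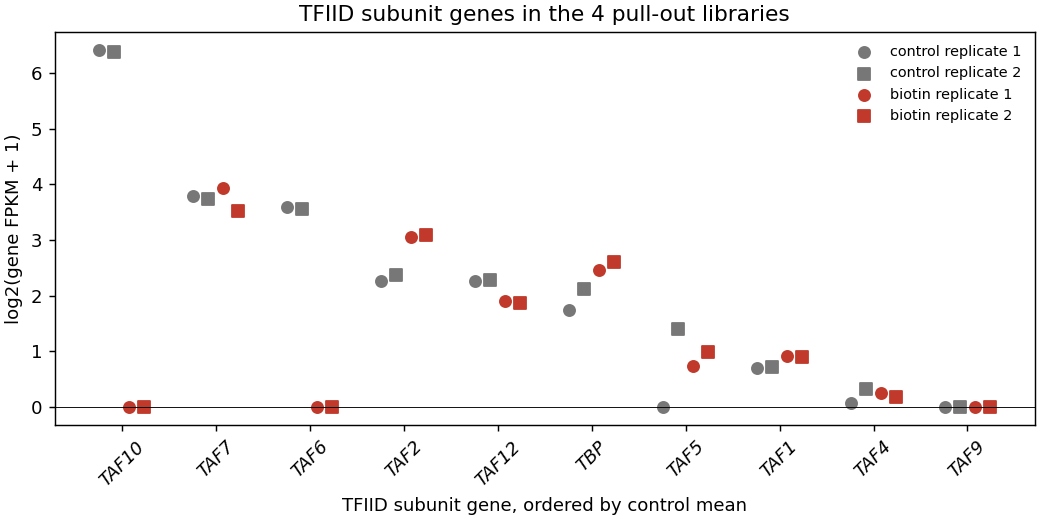
Level of each of the 10 TFIID members, as log2(FPKM + 1), in the 2 control and 2 biotin libraries, 1 point per library. TAF10 (FPKM 84.0 and 82.6) and TAF6 (11.1 and 10.8) are above 0 in the controls and at 0 in both biotin libraries, while TAF9 is at 0 in all 4.

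TBP (chr6:170554333-170572870, plus strand, hg38), the DNA-binding subunit, had an FPKM of 2.37 and 3.34 in control replicates 1 and 2 and of 4.51 and 5.12 in biotin replicates 1 and 2. Both biotin libraries were higher than both controls. Means were 2.85 ± 0.687 and 4.81 ± 0.428 (SD, n = 2 each), a ratio of 1.69 and a difference of 0.60 in log2(FPKM + 1), the scale of all differences here, which understates the change of low genes. TBP is shared with the initiation factors of RNA polymerases I and III, and its level is thus not that of TFIID alone.

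TAF1 and TAF7 bind one another, TAF7 covering the acetyltransferase region of TAF1, and TAF2 reads the initiator element. TAF2 (chr8:119730774-119832834, minus strand) had an FPKM of 3.82 and 4.20 in controls and of 7.36 and 7.51 in biotin libraries. Its groups did not overlap, with means of 4.01 ± 0.263 and 7.43 ± 0.108 (SD, n = 2 each), a ratio of 1.85 and a difference of 0.75, the largest positive one among the members. TAF1 (chrX:71366239-71530525, plus strand), the largest subunit, stayed under the filter with 0.622 and 0.656 in controls and 0.896 and 0.875 in biotin libraries. The biotin values were again the higher pair, at a ratio of 1.39, and 3 of its 13 transcript rows were above 0 in any library. TAF7 (chr5:141318490-141320784, minus strand), an intronless gene, had 12.8 and 12.4 in controls and 14.2 and 10.4 in biotin libraries. Here the groups overlapped, with the biotin values on either side of the controls and a difference of -0.04.

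In the histone-fold pair TAF4 and TAF12, TAF12 (chr1:28603096-28643092, minus strand) had an FPKM of 3.81 and 3.87 in controls and of 2.76 and 2.66 in biotin libraries. Both biotin values were the lower ones, with means of 3.84 ± 0.0462 and 2.71 ± 0.0690 (SD, n = 2 each), a ratio of 0.705 and a difference of -0.38. Its transcript rows lay in opposite directions. NM_005644 went from 3.50 and 3.36 in controls to 2.14 and 1.87, and NM_001135218 from 0.312 and 0.513 to 0.622 and 0.789. The share of NM_001135218 in the gene's FPKM was 8.20% and 13.2% in controls and 22.5% and 29.7% in biotin libraries, as apportioned by Cufflinks and without an error of its own. TAF4 (chr20:61974798-62065810, minus strand), the partner and a coactivator contact, had at most 0.250: 0.0472 and 0.250 in controls, 0.190 and 0.138 in biotin libraries. Its values overlapped and were too low to order.

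TAF10 (chr11:6610817-6612244, minus strand), the histone-fold partner of TAF8 and TAF3 and a shared SAGA subunit, was by far the highest member in controls, with an FPKM of 84.0 and 82.6. Both biotin libraries listed it at 0. The gene has a single row, NM_006284, of 817 bases, with status OK in all 4 libraries. The file's own interval ran from 71.3 to 97.3 and from 70.1 to 95.0 in controls, which corresponds to an estimated 1104 and 1205 reads. In biotin libraries its upper bound was 0.783 and 0.672, and coverage was 0. No fold is given, because the tables hold no counts and an exact 0 can be a failed estimate.

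TAF6 (chr7:100107070-100119858, minus strand), the histone-fold partner of TAF9, had an FPKM of 11.1 and 10.8 in controls and was listed at 0 in both biotin libraries. All of the control value stood on the noncoding row NR_033792, of 2313 bases, with an estimated 414 and 447 reads. The 3 coding rows, NM_005641, NM_001190415 and NM_139315, were at 0 in all 4 libraries. As apportioned by Cufflinks, the coding rows thus did not separate the groups, and only the noncoding row did. NR_033792 has the same start and end as NM_005641. Whether reads of the coding mRNA were placed on the noncoding row was not tested, so absence of the coding mRNA is not read from these zeros. The control values of 11.1 and 10.8 lay above the row's own intervals of 5.57 to 7.78 and 6.69 to 8.96, and the biotin upper bounds were 0.0475 and 0.0353.

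TAF9 (chr5:69364743-69370013, minus strand), the partner of TAF6, was listed at 0 in all 4 libraries, and nothing can be said of the pair from it. TAF5 (chr10:103367967-103389066, plus strand), the WD-repeat scaffold of the core, had 0 and 1.66 in controls and 0.663 and 0.996 in biotin libraries. Its control replicates stood further apart than the groups, so no order was read.

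Values and the file's own intervals did not always match. Of 37 member row values above 0, 18 lay inside their interval and 19 outside: the 2 TAF6 values above it, and 6 of TAF1, 4 of TAF2, 3 of TAF5 and 4 of TAF7 below it. For TAF2 in control replicate 1 the interval was 7.19 to 8.83 beside an FPKM of 3.82, and for TAF7 it was 20.6 to 24.7 beside 12.8. All values of TBP, TAF4, TAF10 and TAF12 were inside. Over all rows above an FPKM of 1, 31.3% to 34.3% per library lay outside, so the mismatch was not limited to these genes.

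Near TAF10 and TAF6, ILK and MCM7 were higher in biotin libraries. ILK, which encodes integrin-linked kinase, lies on the opposite strand (chr11:6603708-6610874) and its end overlaps the end of TAF10 by 58 bases. Its FPKM was 18.3 and 24.4 in controls and 54.7 and 47.3 in biotin libraries, with both biotin values the higher ones. The difference was 1.23 ± 0.21 (SE; limma adjusted p = 0.0135), and ILK was called higher. Without control replicate 1, control replicate 2 or biotin replicate 1 the adjusted p was 0.0897, 0.0603 and 0.0671, and without biotin replicate 2 it was 0.0490. TPP1, a lysosomal protease gene on the other side of the pair, had 12.7 and 14.8 in controls and 14.2 and 16.1 in biotin libraries (0.13 ± 0.18, adjusted p = 0.619). RRP8, on the ILK side of the pair, was under the filter with 0.510 and 0.260 in controls and 0.166 and 0.237 in biotin libraries.

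Multiplied by transcript length in kilobases, FPKM gives a length-free value, the scaled fragments of the whole transcript, which can be added over neighbours. TAF10 had 68.7 and 67.5 scaled fragments in controls and 0 in both biotin libraries, while ILK had 32.6 and 43.5 in controls and 97.5 and 84.3 in biotin libraries. Their sum was 101.2 and 111.0 in controls and 97.5 and 84.3 in biotin libraries. The summed biotin values were still the lower pair, by far less than TAF10 alone. Whether reads of one gene were counted for the other was not tested, since the tables hold no reads and the strand setting is not given in the sources used here.

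At TAF6, the start overlaps CNPY4 by 217 bases and the end overlaps AP4M1, an adaptor-complex gene, by 111 bases, both on the opposite strand, and both were listed at 0 in all 4 libraries. AP4M1 in turn overlaps MCM7, a subunit of the replicative helicase, which had an FPKM of 15.4 and 16.3 in controls and of 34.7 and 27.4 in biotin libraries. Both biotin values of MCM7 were higher, and it was called (0.92 ± 0.19 SE, limma adjusted p = 0.0225). The adjusted p was 0.117, 0.110 and 0.0938 without control replicate 1, control replicate 2 and biotin replicate 1, and 0.0477 without biotin replicate 2. TAF6 had 25.8 and 25.0 scaled fragments in controls and MCM7 46.8 and 49.2, against 0 for TAF6 and 105.3 and 82.6 for MCM7 in biotin libraries. The sum over the 4 genes was 72.5 and 74.1 in controls and 105.3 and 82.6 in biotin libraries, here with the biotin pair higher. Of the other neighbours, LAMTOR4 had 34.5 and 36.5 in controls and 50.7 and 23.5 in biotin libraries (-0.04 ± 0.35, adjusted p = 0.951). MBLAC1, which overlaps TAF6 in the RefSeq table but not in the deposited rows and is left out of the sum, was under the filter with 0.509 and 1.27 in controls and 0.688 and 0.477 in biotin libraries.

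**Figure D2:**
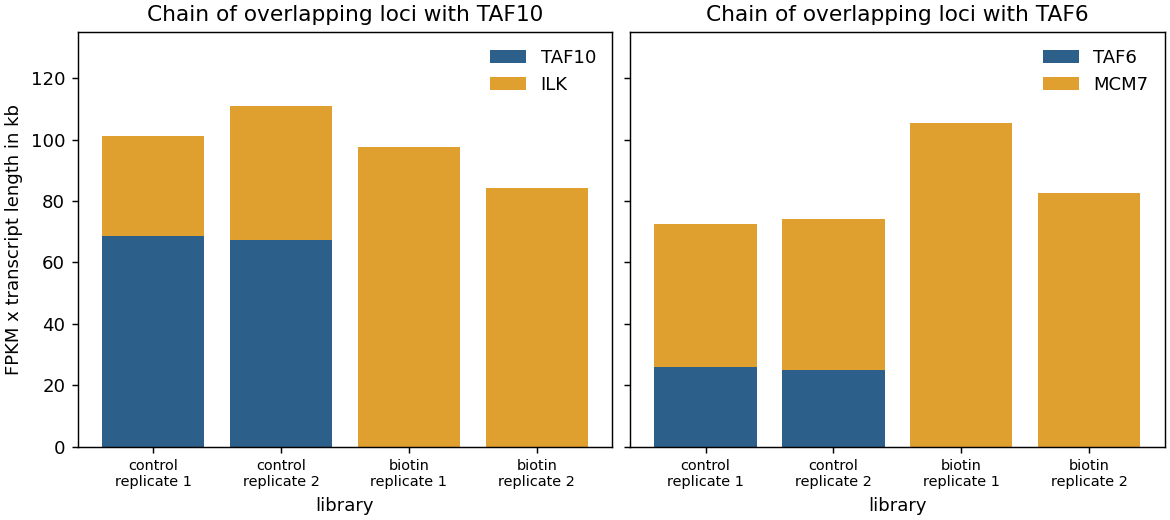
Scaled fragments (FPKM times transcript length in kilobases) of TAF10 with ILK, and of TAF6 with the genes its locus is joined to by overlap, stacked per library; AP4M1 and CNPY4 are at 0 and not drawn. TAF10 and TAF6 are present in both controls and at 0 in both biotin libraries, where ILK and MCM7 are higher.

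TAF10 and TAF6 were among 17 tested genes listed at 0 in both biotin libraries, 0.171% of those tested, and 31 genes, or 0.312%, were at 0 in both controls. Of the 17, 15 (88.2%) overlapped another coding locus by at least 1 base, by the positions of the deposited rows, beside 1530 of 9513 tested coding genes (16.1%). By this rule the share was nearly as high in the other direction, with 19 of the 22 coding genes at 0 in both controls (86.4%). It was 17.1% (151 of 881) among genes called lower that were not at 0, and 15.9% (199 of 1249) among those called higher. With an overlap of at least 100 bases, which leaves out ILK and TAF10, 13 of 17 (76.5%) overlapped beside 13.1% of tested genes. Genes at 0 in both controls then stood at 14 of 22 (63.6%). With noncoding rows counted as loci, the shares were 17 of 17 (100%) and 23.8%, and 27 of 31 (87.1%) for genes at 0 in both controls. These shares are descriptions, with no test.

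**Figure D3:**
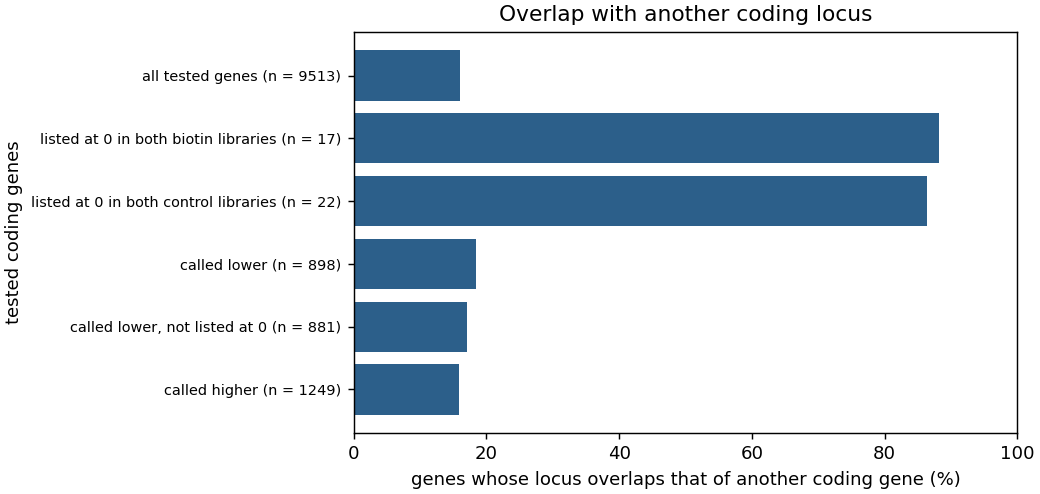
Share of coding genes, in percent, whose locus overlaps another coding locus by at least 1 base, for all tested genes and for genes by their values in biotin and control libraries. Genes listed at 0 in a whole group are at 88.2% and 86.4%, and the other groups of genes lie between 15.9% and 18.5%.

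In 14 of the 15 the overlapping gene was on the opposite strand, and 11 had an overlapping gene that was itself tested. In 10 of these 11, TAF10 among them, that neighbour was above both controls in both biotin libraries, beside 29.4% of all tested genes. The exception was MED31, whose neighbour TXNDC17 had 15.1 and 17.8 in controls and 9.90 and 10.6 in biotin libraries. For 4 genes, TAF6 among them, every coding gene whose deposited rows overlap was at 0 in all libraries. An example of the 10 with a higher neighbour is PTRHD1, which overlaps CENPO by 77 bases. PTRHD1 went from 53.5 and 49.9 to 0 and 0, while CENPO went from 8.97 and 11.5 to 15.3 and 16.9.

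The genes whose 4 values were most like those of TAF10, by Euclidean distance in log2(FPKM + 1), were PTRHD1 at 0.96, CYB561A3 at 2.29 and TMX2 at 3.28. Their controls were 53.5 and 49.9, 24.2 and 29.1, and 15.4 and 16.4, and all were at 0 in both biotin libraries. Nearest to TAF6 were ENDOG at 0.31, RPS10 at 0.41 and LSM1 at 0.49, with controls of 8.84 and 11.4, 14.1 and 13.2, and 15.0 and 13.3 and biotin values of 0. Likeness over 4 libraries of 2 kinds mainly restates the pattern of zeros and the control level.

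Among the members, 4 of 10 overlap another coding locus: TAF5, TAF6, TAF9 and TAF10. These are the members with a library at 0, while the other 6 were above 0 in all 4. TAF6 and TAF10 were chosen for their zeros, so nothing is read from this match. TAF5 overlaps ATP5MK, a small subunit of ATP synthase, by 16 bases. ATP5MK had an FPKM of 505.5 and 499.3 in controls and 179.7 and 202.4 in biotin libraries, and was called lower (-1.39 ± 0.19 SE, limma adjusted p = 0.00649). The adjusted p was 0.0686 and 0.0601 without control replicate 1 and 2, and 0.0452 and 0.0327 without biotin replicate 1 and 2. TAF9 shares 5271 bases with AK6, an adenylate kinase gene also at 0 in all libraries, and 717 with RAD17, a checkpoint clamp loader gene. RAD17 was at 0.174 and 0.218 in controls and at 0.103 and 0.0613 in biotin libraries. These RAD17 values stand on an alternate contig, and its rows on the chromosome were at 0 in all 4 libraries.

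TAF9 and TAF4 also have rows on an alternate contig beside those on the chromosome. Of 792 coding genes with such a row, 589 (74.4%) were at 0 in all 4 libraries, against 4366 of 18536 (23.6%) without one. Among the members and the 6 lists of related factors, 4 of 8 genes with an alternate row were at 0 (TAF9, TAF15, GTF2H2 and CDK7), against 1 of 107 (0.935%) without one, TBPL2. A zero for TAF9 is thus shared with most genes annotated in this way, and expression of TAF9 in these cells cannot be read from it.

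Other genes of transcription initiation were grouped in 6 lists by function, 105 genes in all. Of the 93 tested, 13 (14.0%) were called higher and 14 (15.1%) lower, with 66 not called and a median difference of -0.11, beside 13.2% higher, 9.32% lower and a median of -0.06 over all tested genes. The share called higher was near that background. The 14 called lower include MED31, which was listed at 0 in both biotin libraries. Without control replicate 1, control replicate 2, biotin replicate 1 and biotin replicate 2, the lists held 2, 1, 6 and 5 genes called higher and 1, 1, 3 and 3 called lower.

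**Figure D4:**
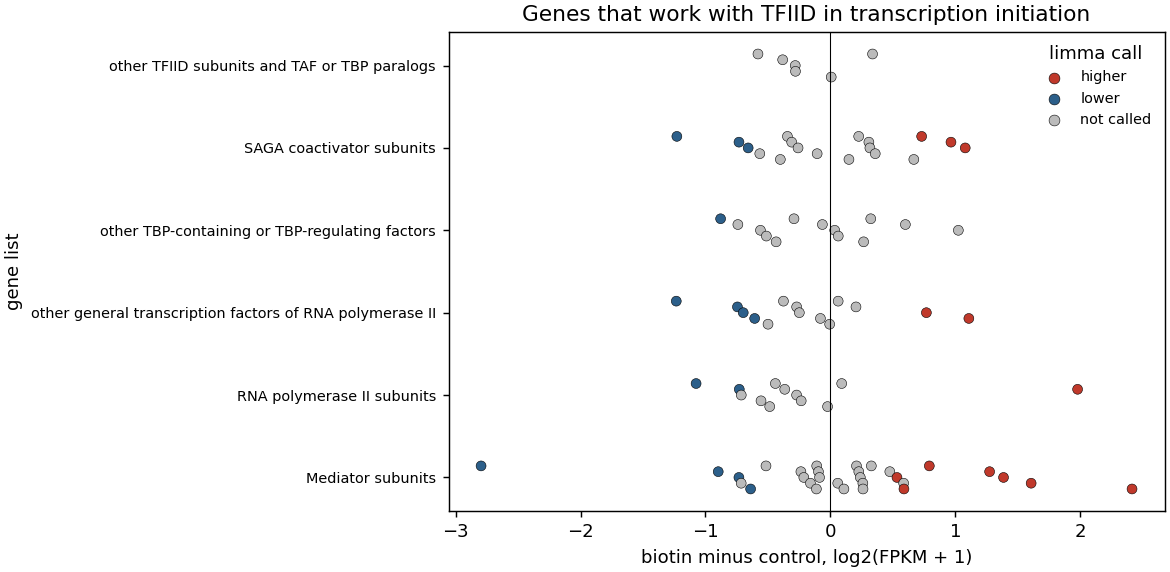
Difference between biotin and control libraries in log2(FPKM + 1) for each tested gene of the 6 lists, 1 point per gene. List medians, which are not drawn, lie between -0.40 (RNA polymerase II) and 0.16 (Mediator), and called genes lie on both sides of 0.

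Of the other 11 TFIID subunits and paralogs 6 were tested and none was called in either direction by limma, with a median of -0.28 and 2 of the 6 below an unadjusted p of 0.05. TAF8, which brings TAF10 into the complex, had 1.21 and 1.44 in controls and 1.34 and 1.32 in biotin libraries (0.01 ± 0.14, adjusted p = 0.979). TAF11 (-0.28 ± 0.14, adjusted p = 0.187) and its histone-fold partner TAF13 (0.34 ± 0.14, adjusted p = 0.139) differed in sign and neither passed. The paralogs TAF4B (-0.28 ± 0.15, adjusted p = 0.205), TAF9B (-0.58 ± 0.21, adjusted p = 0.0975) and TBPL1 (-0.38 ± 0.15, adjusted p = 0.108) were lower without passing. TAF9B, which can take the place of TAF9, had 1.22 and 1.86 in controls and 0.447 and 0.966 in biotin libraries. TAF3, TAF1L and TAF7L were under the filter, and TAF15 and TBPL2 were at 0 in all libraries. The 2 SAGA paralogs did not pass either: TAF5L at 0.31 ± 0.15 (adjusted p = 0.175) and TAF6L at 0.67 ± 0.19 (adjusted p = 0.0520).

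SAGA, which shares TAF9, TAF10 and TAF12 with TFIID, had 3 genes higher and 3 lower among 18 tested, with a median of 0.02. TRRAP, its activator-binding scaffold, rose from 5.05 ± 0.472 to 12.0 ± 3.26 (SD, n = 2 each; 1.08 ± 0.21 SE, limma adjusted p = 0.0193). ATXN7, of the deubiquitinating module, rose from 3.36 ± 0.314 to 7.50 ± 0.0230 (0.96 ± 0.15, limma adjusted p = 0.00849). ENY2, of the same module, fell from 7.54 ± 0.585 to 4.14 ± 0.0113 (-0.73 ± 0.15, limma adjusted p = 0.0201). With single transcript rows in place of genes, ENY2 was at -0.17 and ATXN7 at 0.62, and neither was called. TRRAP, at 1.22, kept its call there. SF3B5, a small splicing factor subunit also found in SAGA, fell from 111.3 ± 12.7 to 49.7 ± 24.0 (-1.23 ± 0.34, limma adjusted p = 0.0497). This call was at the edge: its adjusted p was 0.0649 under median-of-ratios scaling and 0.0558 with a pseudocount of 0.1. Without biotin replicate 2 the difference of SF3B5 was -0.73 (limma adjusted p = 0.140). ATXN7L3, also of the deubiquitinating module, was called higher, with 3.07 and 2.95 in controls and 6.55 and 4.85 in biotin libraries (0.73 ± 0.17, limma adjusted p = 0.0312). Among 13 tested factors that contain or regulate TBP, 1 was called: SNAPC1, of the snRNA promoter complex, fell from 5.48 ± 0.642 to 2.53 ± 0.413 (-0.88 ± 0.16, limma adjusted p = 0.0157).

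Of 14 tested general transcription factor genes 2 were higher and 4 lower, with a median of -0.26. GTF2H3 and ERCC2, both of TFIIH, rose from 8.35 ± 0.412 to 19.4 ± 4.97 and from 6.49 ± 0.182 to 11.8 ± 0.103 (1.11 ± 0.21 and 0.77 ± 0.15, limma adjusted p = 0.0181 and 0.0189). With single transcript rows in place of genes, GTF2H3 was at -0.068 and was not called. GTF2A2, the small TFIIA subunit that stabilises TBP on DNA, fell from 15.1 ± 0.163 to 5.92 ± 1.25 (-1.23 ± 0.18, limma adjusted p = 0.00819). GTF2F2 of TFIIF fell from 6.73 ± 0.146 to 3.61 ± 0.00116 (-0.74 ± 0.14, limma adjusted p = 0.0167). MNAT1, another subunit of TFIIH, was called lower, with 6.02 and 7.10 in controls and 3.84 and 3.46 in biotin libraries (-0.70 ± 0.15, limma adjusted p = 0.0263). Called TFIIH genes thus lay in both directions.

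Among the 12 RNA polymerase II subunits, 1 was higher and 2 were lower, with a median of -0.40. POLR2I rose from 45.5 ± 2.74 to 198.3 ± 111.8 (1.98 ± 0.39, limma adjusted p = 0.0192), the biotin libraries differing widely. It overlaps TBCB by 319 bases, and TBCB had 44.6 and 60.7 in controls and 37.4 and 39.0 in biotin libraries. POLR2K fell from 15.8 ± 1.38 to 6.97 ± 0.444 (-1.08 ± 0.16, limma adjusted p = 0.00881), and POLR2C from 26.9 ± 1.90 to 15.8 ± 1.26 (-0.73 ± 0.18, limma adjusted p = 0.0328). Without control replicate 1 or 2 the adjusted p of POLR2I was 0.124 and 0.118.

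Mediator, the bridge between activators and the polymerase, had 7 higher and 4 lower of 30 tested, with a median of 0.16. MED6 of the head module rose from 7.38 ± 1.63 to 43.5 ± 7.19 (2.41 ± 0.22, limma adjusted p = 0.00161), and MED28 from 7.36 ± 1.81 to 24.5 ± 5.93 (1.61 ± 0.24, limma adjusted p = 0.00861). MED31, counted among the 4 lower, went from 5.84 and 6.05 to a listed 0 in both biotin libraries, the pattern of TAF10 and TAF6. It overlaps TXNDC17 by 1229 bases and passed the filter only through its control values. Its call thus rests on zeros that can be failed estimates. MED19 fell from 1.76 ± 0.563 to 0.470 ± 0.184 (-0.90 ± 0.20, limma adjusted p = 0.0255). Of the list genes named, MED6 kept its call whichever library was left out. MED31 did too, but its biotin values are both 0, so leaving out either of them could not move its difference. MED28, GTF2A2 and POLR2I kept their call in 2 of 4 such fits, and the others in at most 1.

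The genes next to or overlapping the 10 members numbered 28, of which 10 were tested. ILK and MCM7 were called higher, ATP5MK and PDCD2 lower, and 6 were not called, beside 13.2% higher and 9.32% lower over all tested genes. PDCD2, next to TBP, differed by -0.74 ± 0.19 (limma adjusted p = 0.0385) and lost the call whichever library was left out, with adjusted p of 0.0784 to 0.175.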

How the data were processed

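Per the labels' protocols, RNA retained by streptavidin from DU-145 cells was made into stranded total RNA libraries and read as single ends of 50 bases, 2 libraries per group. The series' text calls them biological replicates. Its design text and the labels differ on the unit of the RNA input, which is not used here. The submitters' processing notes name the build hg38 and the tools Cufflinks 2.1.1, Cuffdiff, TopHat2 2.0.9 and cutadapt. Settings, strandedness of the counting and the annotation: not given in the sources used here. The authors deposited, per the file headers, FPKM with lower and upper bounds, transcript length, status and coverage for 53209 transcript rows per library. The deposited coverage, a signal per transcript, served to estimate depth and the reads of single transcripts, as coverage times length over the read length (mapped reads of 16030000 and 17830000 in the control, and of 17560000 and 23640000 in the biotin libraries). The tables hold no counts, so counting intervals are not given.

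Symbols were found for 98.6% of 46699 transcript identifiers, in RefSeq's table of genes or in GENCODE 29. FPKM was summed per gene. The groups were compared on log2(FPKM + 1), over the 9932 genes that reached 1 FPKM in 2 or more libraries. The 2-sided test was that of limma 3.58.1 (lmFit, then eBayes with its trend option; R 4.3.3), with Benjamini-Hochberg adjustment and a threshold of 0.05. Short structured RNA genes and 22 genes with a failed or excess-data row were left out. The fit had 2 residual degrees of freedom and 4.2 from the prior. An exact permutation of 2 against 2 libraries cannot go below p = 0.333 and was not used. The fit was also run on simulated normal values, with the spread of each gene shuffled over genes. That setting lacks the variance trend of the data, so nothing is read from it. Sequences came from RefSeq and GENCODE 29 (GRCh38).

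The members and the lists were chosen with earlier results of these data known. Named were all members, every called gene of a list with at most 3 called or else the 2 largest changes per direction, all neighbours of TAF10 and TAF6 and the called neighbours of other members, and the 3 genes nearest to TAF10 and to TAF6. Other TAF paralogs, ATXN7L3 and MNAT1 were named after their values were seen. Alternatives were 3 scalings, other pseudocounts (0.1, 5), other filters (none, or a mean of 5 FPKM), no variance trend, single transcript rows, a replicate block and each library left out. Overlaps of at least 100 bases or with noncoding rows were added after seeing the data.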

Additional observations from a re-analysis of the deposited data

How the results depend on the processing

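Counts of calls depended on the filter, the unit and single libraries. Over all tested genes, 1307 were called higher and 926 lower. Without a filter these were 653 and 231, with single transcript rows 254 and 90, and with one library left out 193 to 680 and 32 to 227. Upper-quartile scaling gave 1224 and 1387 (median difference -0.13), median-of-ratios scaling 1483 and 755, and quantile normalization 1276 and 1213. In the lists, 13 were higher and 14 lower, against 5 and 4 without a filter, 2 and 1 with single transcript rows, and 1 to 6 and 1 to 3 with one library left out. Among the neighbours, 2 were higher and 2 lower, against 1 and 1 without a filter, 0 and 1 with single transcript rows, 2 and 1 at a mean FPKM of at least 5, and 0 to 2 and 0 to 1 with one library left out. A group left with 1 library is assumed to vary like the other.

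The replicate block gave 1078 higher and 534 lower over all genes, 11 and 10 in the lists, and 2 and 2 among neighbours. The labels do not say that a number marks a shared batch, and the deviations of same-numbered libraries correlated at 0.003 across genes. For the single genes named, 228 values kept their direction and side of the threshold, 99 lost the call, and 4 changed sign: GTF2H3 with single transcript rows (-0.068), and LAMTOR4, not called, with median-of-ratios scaling (0.037) and with one library left out (-0.58 to 0.50). TBP, TAF2 and TAF12 kept their direction under every setting that included them, and TAF1 was fitted only without a filter. The groups of TBP, TAF2 and TAF12 did not overlap, so a library left out, another pseudocount or another filter could not turn the direction. Only the scalings, and for TAF12 the single transcript rows, could have done so. For TAF6 and TAF10, chosen for biotin values of 0, no setting could turn the direction. Their differences (TAF10, then TAF6) ranged from -9.70 to -4.14 and from -6.79 to -1.68 over pseudocounts of 0.1 to 5, which set them. TAF7 ranged from -0.25 to 0.16. TAF4 rested on an estimated 3.49 to 20.6 reads per library, and 2 libraries per group limit every test.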
